A study of Homo sapiens with 402 samples.

Results

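PCB153 and PCB187 are polychlorinated biphenyls, persistent industrial pollutants made of a pair of linked, chlorinated phenyl rings. They were given to MCF10A cells, an immortalized but not malignant line of human mammary epithelium, and RNA was sequenced 48 h later. The members were the 32 libraries labelled PCB153 or PCB187, out of 402 libraries of the series: 4 libraries at each of 0.025, 0.25, 2.5 and 25 µM of each compound. Their controls were the 15 libraries of the same plate that received only the solvent DMSO, which all dosed groups carried too. MCF10A is 1 cell line grown here as a monolayer in multiwell plates, and the protocol names 4 biological replicates per dose without saying what separated them. P-values therefore measure the spread between these wells.

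PCB153 is a hexachlorobiphenyl and PCB187 a heptachlorobiphenyl. Each has a ring chlorinated at an ortho, a meta and a para position. The other ring of PCB153 has the same pattern, whereas that of PCB187 has additional ortho and meta chlorines and lacks the para chlorine. Ortho chlorines keep the rings from lying flat, so that both congeners are classed as non-dioxin-like. Flat, dioxin-like congeners bind the aryl hydrocarbon receptor (AhR), a transcription factor whose best known target is CYP1A1, a cytochrome P450 that oxidizes aromatic hydrocarbons. Non-dioxin-like congeners are known instead for acting on the xenobiotic receptors CAR and PXR in liver, on ryanodine receptors and on lipid metabolism. Cholesterol is made from acetyl-CoA by a chain of enzymes whose genes are switched on together by the transcription factor SREBP2. INSIG1 holds SREBP2 back when sterols are plentiful. SREBP2 also drives genes of sterol uptake, and the related SREBP1 drives fatty acid synthesis genes such as FASN and SCD.

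The results below turn on CYP1A1 for PCB153 and on sterol genes for PCB187, so their promoters are shown. Each is the 250 bases before the start of the gene in RefSeq (GRCh38.p14), written 5′ to 3′ on the strand of the gene. Capitals mark GCGTG, the core letters of the element that AhR binds, in CYP1A1 at chr15:74725529-74725778 (minus strand). In the other promoters capitals mark CCAAT on either strand (ATTGG when it lies on the opposite one), letters bound by NF-Y, a factor known to work beside SREBP. These are LSS at chr21:46228775-46229024 (minus strand), DHCR7 at chr11:71448394-71448643 (minus strand) and INSIG1 at chr7:155297628-155297877 (plus strand). Only 1 motif is marked in each promoter, so the capitals show no contrast between the genes. CYP1A1 also holds an unmarked CCAAT, and LSS, DHCR7 and INSIG1 each also hold unmarked GCGTG.
CYP1A1: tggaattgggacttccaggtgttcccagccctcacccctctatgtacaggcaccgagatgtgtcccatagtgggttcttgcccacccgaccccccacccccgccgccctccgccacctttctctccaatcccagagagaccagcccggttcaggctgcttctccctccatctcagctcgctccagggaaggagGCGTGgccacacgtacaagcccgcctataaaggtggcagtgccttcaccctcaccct
LSS: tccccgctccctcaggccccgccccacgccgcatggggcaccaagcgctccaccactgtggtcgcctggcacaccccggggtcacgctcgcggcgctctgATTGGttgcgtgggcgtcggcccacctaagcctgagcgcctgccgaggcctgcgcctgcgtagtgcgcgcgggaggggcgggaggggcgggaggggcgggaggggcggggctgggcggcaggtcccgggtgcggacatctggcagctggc
DHCR7: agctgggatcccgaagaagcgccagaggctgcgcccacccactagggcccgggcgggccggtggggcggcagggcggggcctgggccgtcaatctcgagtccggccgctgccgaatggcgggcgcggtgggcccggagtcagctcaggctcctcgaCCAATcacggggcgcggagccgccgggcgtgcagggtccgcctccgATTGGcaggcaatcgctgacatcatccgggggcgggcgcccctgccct
INSIG1: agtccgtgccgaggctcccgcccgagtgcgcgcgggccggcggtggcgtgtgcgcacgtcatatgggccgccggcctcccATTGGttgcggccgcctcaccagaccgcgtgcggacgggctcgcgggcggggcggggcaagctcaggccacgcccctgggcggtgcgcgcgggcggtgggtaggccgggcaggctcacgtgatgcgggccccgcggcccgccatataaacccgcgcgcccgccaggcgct
GCGTG was found on either strand in 32.2% of 35116 RefSeq promoters of this length, and CYP1A1 held it once, from 57 to 53 bases before its start. Of the 20 cholesterol synthesis genes listed here, 15 had a promoter in the table, and 12 of those (80%) held CCAAT, against 32.01% of all promoters. GCGTG was held by 12 of the 15 too, and none held TCACNCCAC, a sterol element searched on both strands and found in 0.883% of all promoters. A match is a description of letters and not a measured binding site.

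Library totals ran from 2.72 M to 21.98 M reads in the 32 PCB libraries, with a median of 12.5 M. The labels number the dosed libraries 1 to 4 and the controls from 49 to 64. Replicates 1 and 2 were taken with controls 49 to 56 as the first set, and replicates 3 and 4 with controls 57 to 64 as the second set. The second set holds 7 controls. The sets differed: 4432 of 21307 genes tested (20.8%) passed the test between them, and each fit carries a term for the set. The controls had a median of 17.9 M reads in the first set and 3.18 M in the second, where the PCB libraries had 13.6 M. Controls were thus the deeper libraries in the first set and the shallower ones in the second, and the part of depth in the results was not tested. Markers of basal epithelium were present in every library (summed level from 1837 to 7942 CPM, read counts scaled to library size), and those of endothelium summed to at most 9.40 CPM. Luminal epithelial markers were present in every library too, at 723 to 1082 CPM. Fibroblast markers summed to at most 92.3 CPM and immune markers to at most 58.4 CPM. In replicate 3 of PCB153 at 0.25 µM the targets of the antioxidant factor NRF2 summed to 34134 CPM, against 10512 to 12140 CPM in the other 3 replicates, and results whose calls change without that library are given both ways.

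Genes of cholesterol synthesis were lower at 25 µM PCB187. IDI1, the isomerase of the isoprenoid branch, had 139.6, 142, 142 and 144 CPM in the 4 libraries. The controls ran from 160 to 253 CPM with a median of 202, so the groups did not overlap. The log2 fold change of IDI1 was -0.52 (SE 0.09, adjusted p = 0.000556, edgeR quasi-likelihood test, Benjamini-Hochberg), so that it fell by 30.1%. It was -0.49 in the first set alone and -0.56 in the second.

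LSS, the cyclase that forms lanosterol, had 78.6, 65.2, 57.2 and 60.4 CPM. The controls of the first set had 98.1 to 131 CPM and those of the second set 62.2 to 115, so every dosed library lay below the controls of its own set. Its log2 fold change was -0.65 (SE 0.12, adjusted p = 0.000967). DHCR7, which carries out the last reduction to cholesterol, had 208 and 229 CPM against 292 to 346 in the first set. In the second set it had 182 and 205 CPM against 243 to 325, and its log2 fold change was -0.49 (SE 0.08, adjusted p = 0.000664). These 3 genes were lower in 4 of 4 libraries.

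Of 21307 genes, 27 (0.127%) were called at 25 µM PCB187 at an adjusted p under 0.05, 7 higher (0.0329%) and 20 lower (0.0939%). Among the 20 lower were 7 of the 20 cholesterol synthesis genes, all of which were tested. Besides IDI1, LSS and DHCR7 these were ACAT2, which joins the first acetyl groups (-0.47), MVD, the last step to isopentenyl diphosphate (-0.62), FDPS, which makes farnesyl diphosphate (-0.44), and HSD17B7, a sterol ketoreductase (-0.64). The median log2 fold change over the 20 was -0.30, against -0.02 over all genes, and 19 of 20 lay below 0. At an unadjusted p under 0.05, 15 of the 20 were lower, where 3.03% of all genes were. PMVK, the kinase before MVD, had 0.24 (unadjusted p = 0.0269). SQLE, the epoxidase, had -0.28 (adjusted p = 0.28). All 4 libraries lay below the mean of the controls of their set for 16 of the 20 genes, against 7.97% of all genes. With PCB153 at 25 µM the same held for 9 of the 20, and for 1650 of all 21307 genes. Without replicate 3 of PCB153 0.25 µM in the fit, 9 of the 20 were called at 25 µM PCB187 against 0.242% of all genes. HMGCS1 (adjusted p = 0.00565) and FDFT1, squalene synthase (adjusted p = 0.0125), were the ones added. HSD17B7 has near-identical pseudogene copies whose reads cannot be separated here.

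**Figure D1:**
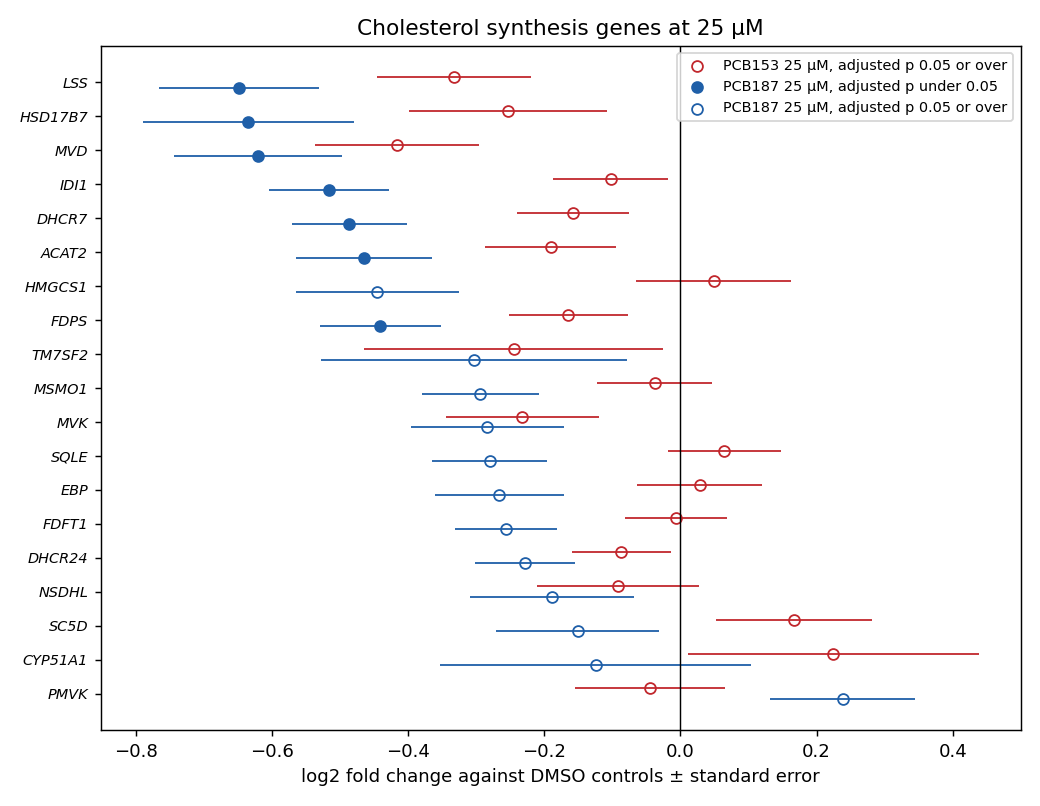
Log2 fold change against DMSO controls (horizontal axis, with standard error) of cholesterol synthesis genes at 25 µM, PCB153 in red and PCB187 in blue. Filled points are called: 7 genes of PCB187 and none of PCB153, and the PCB187 points lie below 0 for all genes drawn but PMVK.

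The summed level of the 20 genes showed the same order library by library. At 25 µM PCB187 it was 2822 and 2829 CPM in the first set and 2729.7 and 2843 in the second. The controls ran from 3399.7 to 3835 CPM in the first set and from 3330.4 to 3758 in the second. At 2.5 µM PCB187 the sums, 3185 to 3371 and 3200.3 to 3279 CPM, also lay below the controls of their set. At 0.025 and 0.25 µM they overlapped the controls. At 25 µM PCB153 the sums were 3422 to 3439.6 CPM in the first set, inside the range of the controls, and 3257 to 3313 in the second, below it.

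A dose trend within PCB187, which uses no controls, gave the change per 10-fold step of dose. IDI1 fell by 0.21 (log2, SE 0.04, adjusted p = 0.00065) per step and LSS by 0.27 (SE 0.05, adjusted p = 0.00105). IDI1 levels were 187 to 252 CPM at 0.025 µM, 203 to 239 at 0.25 µM, 157 to 198 at 2.5 µM and 139.6 to 144 at 25 µM. At 2.5 µM the libraries of the first set lay within the controls of that set (160.1 to 228 CPM), and the 169 and 157 CPM of the second set lay below its controls (189 to 253). For LSS the log2 fold change against control was 0.15, -0.20, -0.48 and -0.65 from the lowest dose to the highest. Of 21307 genes, 8 (0.0375%) had a trend, of which IDI1 and LSS are cholesterol synthesis genes. When replicate 3 of PCB153 0.25 µM was left out, 17 of 22715 (0.0748%) had one, and ACAT2 (-0.15), FDPS (-0.12) and DHCR7 (-0.12 per step) were added to them. For PCB153 the trend of IDI1 was 0.02 per step (adjusted p = 1) and that of LSS -0.07 (adjusted p = 1).

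INSIG1, which feeds back on SREBP2, was lower as well. It was called at 25 µM PCB187 with a log2 fold change of -0.60 (SE 0.14, adjusted p = 0.0355). It had 60.3 and 57.9 CPM in the first set against 92.0 to 112 in the controls, and 47.5 and 67.0 in the second set, where the controls from 46.9 to 102 overlapped them. SREBF2, the gene of SREBP2 itself, had -0.27 (unadjusted p = 0.00896).

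Fatty acid synthesis genes were compared at 25 µM of each compound. Their summed level was 1247 and 1298 CPM with PCB187 in the first set, and 1244 and 1355 with PCB153, against 1464 to 1559.5 in the controls. In the second set it was 1188 to 1314 CPM with PCB187 and 1189.6 to 1329.6 with PCB153, against 1405 to 1582. No member of the 12 was called with either compound when all libraries were in the fit. FASN, fatty acid synthase, had -0.56 with PCB153 (SE 0.12, adjusted p = 0.0562) and -0.39 with PCB187 (adjusted p = 0.25). SCD, which desaturates stearate, had -0.45 with PCB153 (adjusted p = 0.19) and -0.44 with PCB187 (adjusted p = 0.0622). In the fit without replicate 3 of PCB153 0.25 µM, FASN (adjusted p = 0.00485) and SCD (adjusted p = 0.00108) were called with PCB153, and SCD with PCB187 (adjusted p = 0.000438). Both compounds were compared with the same controls, so their values are not independent.

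**Figure D2:**
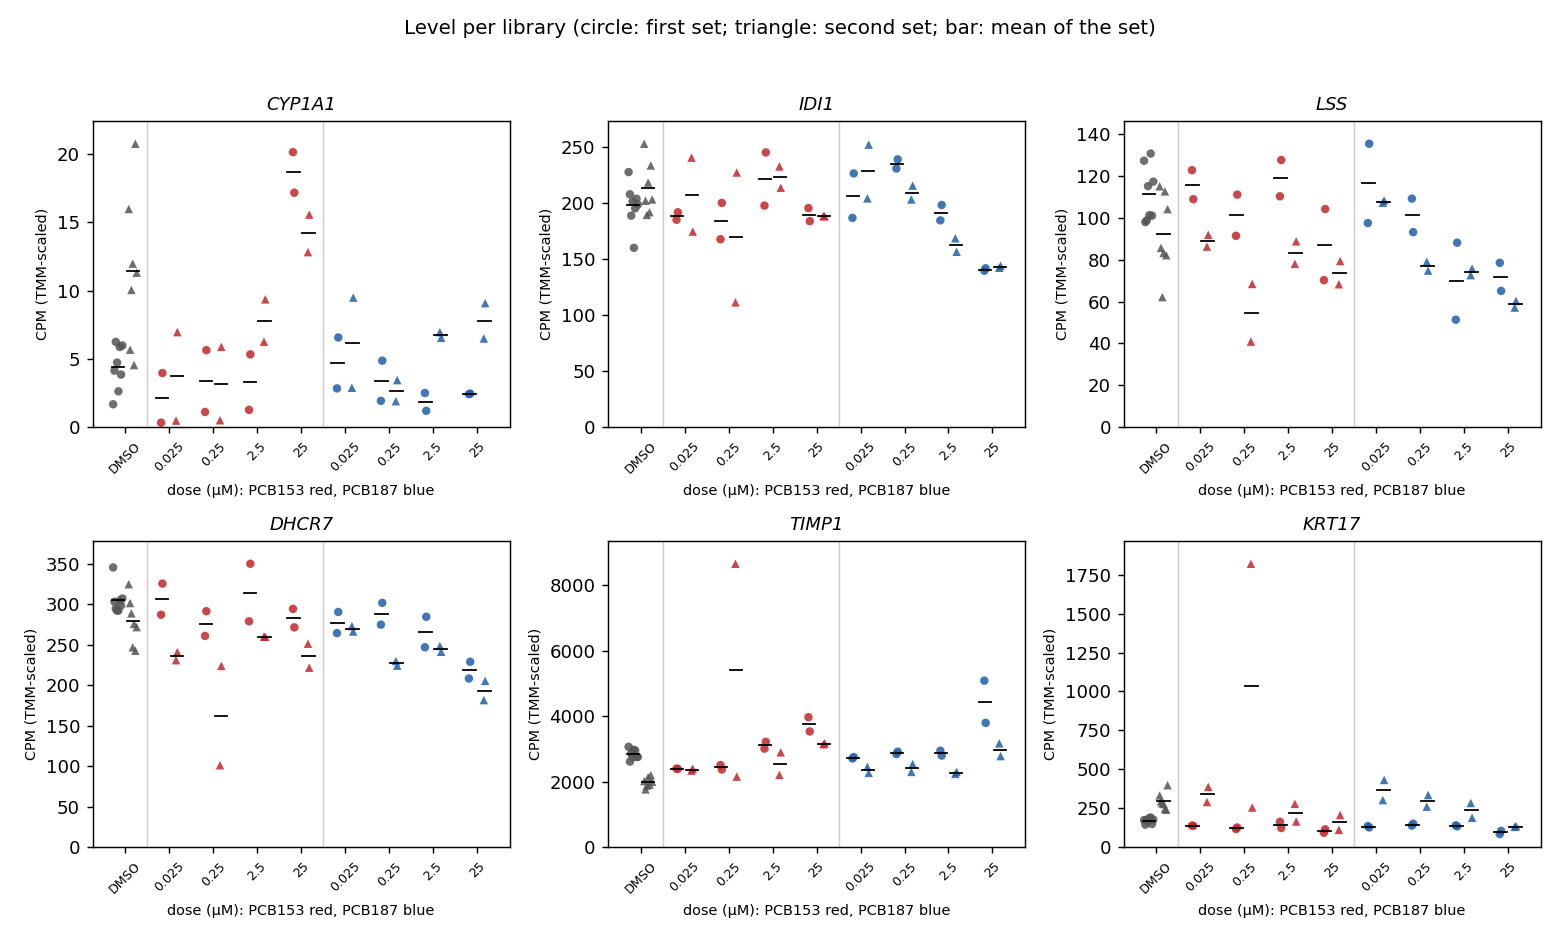
Level of 6 genes in each library (vertical axis, CPM from 0) in DMSO controls (grey), PCB153 (red) and PCB187 (blue) by dose in µM, with circles for the first set, triangles for the second and a bar for the mean of each set. CYP1A1 was highest among dosed groups at 25 µM PCB153, IDI1 lay below all controls at 25 µM PCB187, and the 1 PCB153 library with a TIMP1 level of 8661 CPM is replicate 3 at 0.25 µM.

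TIMP1, an inhibitor of matrix metalloproteinases, had positive fold changes at 25 µM of each compound. With PCB187 it had 5088 and 3799 CPM in the first set against 2614 to 3067 in the controls, and 3170.4 and 2782 in the second set against 1765 to 2199. With PCB153 it had 3971, 3535, 3143 and 3176 CPM, also above the controls of each set. The log2 fold change was 0.60 with PCB187 (SE 0.12, adjusted p = 0.00247) and 0.51 with PCB153 (SE 0.12, adjusted p = 0.0813). TIMP1 was called in both when replicate 3 of PCB153 0.25 µM was left out (adjusted p = 9.04e-15 and 6.96e-11). That library alone had 8661 CPM, and the SE of TIMP1 with PCB187 was 0.12 with it and 0.06 without it. TSC22D1, a leucine zipper protein, was 0.55 higher with PCB187 (SE 0.10, adjusted p = 0.00117) and had 0.47 with PCB153 (adjusted p = 0.0562, and 0.00275 without that library).

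KRT17 and KRT6A, keratins of stressed epithelium, were called lower at 25 µM PCB187. KRT17 had 83.8 and 105 CPM at 25 µM PCB187 in the first set against 144 to 189.9 in the controls, and 130.2 and 135 in the second set against 240.1 to 398. Its log2 fold change was -1.07 (SE 0.23, adjusted p = 0.0193). KRT6A had -0.56 (SE 0.11, adjusted p = 0.00455). With PCB153 at 25 µM, KRT17 had 92.0, 114, 111 and 206 CPM, each below the controls of its set. The change of KRT17 with PCB153 was -0.85 (adjusted p = 0.36, and 0.00043 without replicate 3 of the 0.25 µM group) and that of KRT6A -0.43 (adjusted p = 0.29, and 0.00632 without it). KRT6A and KRT17 have near-identical relatives or pseudogenes, so part of their reads may belong to those.

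Inflammatory and acute phase genes lay lower at 25 µM PCB187. Of 14 tested, 13 had a log2 fold change below 0 and 9 an unadjusted p under 0.05, as did 3.03% of all genes on the lower side, but none was called. The median was -0.55 against -0.02 over all genes. SAA1, an acute phase apolipoprotein, had 2025 and 1929 CPM in the first set against 2236 to 3210.5 in the controls. In the second set it had 643 and 188 CPM against 619.6 to 1748, an overlap. Its log2 fold change was -0.81 (SE 0.21, adjusted p = 0.12), -0.47 in the first set alone and -1.35 in the second. SAA2 had -1.11 (adjusted p = 0.0654). With that library left out (replicate 3 of PCB153 0.25 µM), SAA2 (adjusted p = 0.0125) and SAA1 (adjusted p = 0.0313) were called, 2 of the 14 against 0.242% of all genes. The copies are near-identical, and reads may be split between them. The summed level of the 14 genes in the first set, 4558 and 4741 CPM, lay below the controls (4827 to 6363), but so did that of every lower PCB187 dose (3617 to 4607). In the second set it was 1691 and 709 CPM, below the controls (1729 to 3652). There the lower PCB187 doses had 3595 to 4762 CPM, mostly above the controls. The median of -0.55 comes from a fit over both sets. With PCB153 at 25 µM, SAA1 had -0.23 and SAA2 -0.39, neither called, and the median of the 14 genes was -0.10.

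ZC3H12A, RELB, CEBPD and STAT3 were also called at 25 µM PCB187, though none was without a term for the set (adjusted p from 0.0713 to 0.82). ZC3H12A, an RNase that limits cytokine transcripts, had -0.70 (SE 0.17, adjusted p = 0.0451), RELB, an NF-κB subunit, -0.74 (adjusted p = 0.0472), CEBPD, a C/EBP factor, -0.43 (adjusted p = 0.0355) and STAT3, which signals from interleukin-6 receptors, -0.33 (adjusted p = 0.0472). ZC3H12A had 204 and 185 CPM against 201 to 257 in the controls of the first set, an overlap, and 50.6 and 39.1 against 73.7 to 149.9 in the second. Its change was -0.24 in the first set alone and -1.20 in the second, and the difference between the sets was not tested. SLC39A8, a zinc transporter, likewise had -0.26 and -0.95, and -0.60 over both (SE 0.12, adjusted p = 0.00563).

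The other genes called at 25 µM PCB187 belong to none of these groups. AXL, a receptor tyrosine kinase, was 0.35 higher (SE 0.08, adjusted p = 0.0416) and ST3GAL5, the GM3 ganglioside synthase, 0.997 higher (SE 0.20, adjusted p = 0.00671). C6orf62 was 0.40 higher (adjusted p = 0.0451). ANXA3, an annexin, had -0.42 (adjusted p = 0.0264), PDZK1IP1 had -1.22 (adjusted p = 0.0215) and GSK3A, a kinase of glycogen metabolism, -0.70 (adjusted p = 0.0472). LBH and IRX4-AS1 were called from few reads: LBH had 1.49, 0.614, 0.187 and 0 CPM, and IRX4-AS1 4.13, 0.767, 1.498 and 2.60 CPM. Leaving out replicate 4 of each PCB group left 6 calls, no term for the set left 5, and leaving out replicate 3 of PCB153 0.25 µM gave 55 of 22715 (0.242%). IDI1 (adjusted p up to 0.0394) and DHCR7 (up to 0.0303) were called in all 13 alternatives run and LSS in 12. MVD and FDPS were called in 8, ACAT2 in 7, INSIG1 in 6 and HSD17B7 in 4. Of these genes, IDI1, DHCR7 and LSS were called with no term for the set.

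CYP1A1 was higher at 25 µM PCB153, the 1 call among 21307 genes (0.00469%). The 4 libraries had 20.1 and 17.2 CPM in the first set against 1.67 to 6.24 in the controls. In the second set they had 12.8 and 15.6 CPM against 4.55 to 20.8, so the groups overlapped there. The log2 fold change was 1.44 (SE 0.27, adjusted p = 0.0117), a 2.72-fold increase. It was 2.04 in the first set alone (adjusted p = 1.89e-05) and 0.38 in the second (adjusted p = 1), and the difference between the sets was not tested. The call was lost without replicate 1 or without replicate 2 of each group, with 0 genes called in either case. It held in 8 of 13 alternatives, with adjusted p from 1.89e-05 to 1. DESeq2 did not call CYP1A1, and its 2 calls at this dose were both lower.

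Among the PCB153 doses the rise of CYP1A1 lay at the top. At 0.025 µM the levels were 0.323, 3.96, 0.475 and 6.96 CPM, at 0.25 µM 1.10, 5.64, 0.50 and 5.88, and at 2.5 µM 1.26, 5.33, 6.26 and 9.36. All of these lay below the 12.8 to 20.1 CPM at 25 µM. The trend of CYP1A1 was 0.81 per 10-fold step (SE 0.15, adjusted p = 0.000342), the 1 gene called with all libraries (0.00469%), with 0.97 in the first set and 0.65 in the second. It was called in 10 of 14 alternatives (adjusted p from 5.06e-07 to 0.66). It was not called in the second set alone, with DESeq2, with another dispersion setting or without replicate 1 of each group. With replicate 3 of the 0.25 µM group left out 5 genes had a trend (0.022%), CYP1A1 with TIMP1, SCD, CD24 and AC087623.2. This trend uses no controls. With PCB187 at 25 µM, CYP1A1 had 2.41, 2.46, 6.49 and 9.08 CPM, within the range of the controls of both sets, and its trend was 0.14 per step (adjusted p = 1).

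No other AhR target was called at 25 µM PCB153. Of 11 tested, CYP1A1, CYP1B1 and TIPARP had an unadjusted p under 0.05, all higher, as did 2.49% of all genes. CYP1B1, a P450 that hydroxylates estrogens, had 413 and 381 CPM against 302 to 339.96 in the first set and 226 and 331 against 166 to 254 in the second. Its log2 fold change was 0.29 (SE 0.07, unadjusted p = 9.7e-05, adjusted p = 0.21). TIPARP, an ADP-ribosyltransferase that restrains AhR, had 0.34 (unadjusted p = 0.00214, adjusted p = 0.69). AHRR, the AhR repressor, had -0.12 and ALDH3A1 0.11. AHR itself had 0.24 (adjusted p = 0.96). With PCB187 CYP1B1 had -0.06 and TIPARP 0.20. The summed level of the 11 targets lay above the controls of its set with both compounds at 25 µM. In the first set it was 1401 to 1422 CPM with PCB153 and 1359 to 1418 with PCB187, against 1141 to 1286.5. In the second set it was 1364 to 1372 CPM with PCB153 and 1313 to 1391.5 with PCB187, against 1090 to 1295. A sum weighs the most abundant members most and does not show that the targets rose as a group. All 4 libraries lay above the mean of the controls of their set for 4 of the 11 with PCB153 and 3 with PCB187. The list median minus that of all genes was 0.20 with PCB153 and -0.04 with PCB187, without replicate 3 of PCB153 0.25 µM in the fit. NQO1, a quinone reductase which NRF2 also drives, had 0.17 with PCB153 and 0.29 with PCB187, neither called. It was called with PCB187 when replicate 3 of PCB153 0.25 µM was left out (adjusted p = 0.0161).

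Without replicate 3 of the 0.25 µM group, 9 of 22715 genes (0.0396%) were called at 25 µM PCB153. They were CYP1A1 (adjusted p = 0.00128), TIMP1, TSC22D1 and SLC20A1 higher, and KRT17, KRT6A, FASN, SCD and DSP lower. DSP encodes desmoplakin of the desmosome and had -0.48 (SE 0.10, adjusted p = 0.0163), and SLC20A1, a phosphate transporter, had 0.30 (adjusted p = 0.0438). These genes were chosen after the values were seen. SLC20A1 had 0.29 and DSP -0.20 with PCB187, of which SLC20A1 was called in the same fit (adjusted p = 0.0221).

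PCB153 at 0.25 µM had 96 calls (0.451%), 85 higher (0.399%) and 11 lower (0.0516%), and replicate 3 carried them. AKR1C1, an aldo-keto reductase driven by NRF2, had 44.1, 49.6, 1588 and 36.2 CPM in replicates 1 to 4, against 40.6 to 82.1 in the controls. SQSTM1, an autophagy receptor, had 463, 504, 2383 and 472 CPM, and FTL, ferritin light chain, had 1981, 1821, 8403 and 1684 CPM. Only replicate 3 was high. It lay outside the range of the controls and of the other 3 replicates for 89 of the 96 genes. Without it no gene was called by the edgeR test (0 of 22715, with 521 higher and 551 lower at an unadjusted p under 0.05). The fitted log2 fold change of AKR1C1 went from 2.68 (SE 0.28, adjusted p = 7.08e-13) to -0.60 (SE 0.16, adjusted p = 0.48).

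The same library set the gene groups at that dose. NRF2 targets, the antioxidant genes under the factor NRF2, were called higher in 11 of 18 with it and in 0 of 18 without it, and their median went from 0.64 to -0.07. The 11 were HMOX1, NQO1, GCLM, GCLC, TXNRD1, SLC7A11, AKR1C1, AKR1C2, AKR1C3, FTL and FTH1. HMOX1, heme oxygenase, had 14.9, 2.22, 79.9 and 2.32 CPM. Cholesterol synthesis genes were called lower in 3 of 20 with it (MVD, DHCR7 and FDPS) and in 0 without it, and their summed level in replicate 3 was 1592 CPM against 3377 to 3496 in the other 3. The AKR1C genes are near-identical in sequence, so reads may be split between them.

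**Figure D3:**
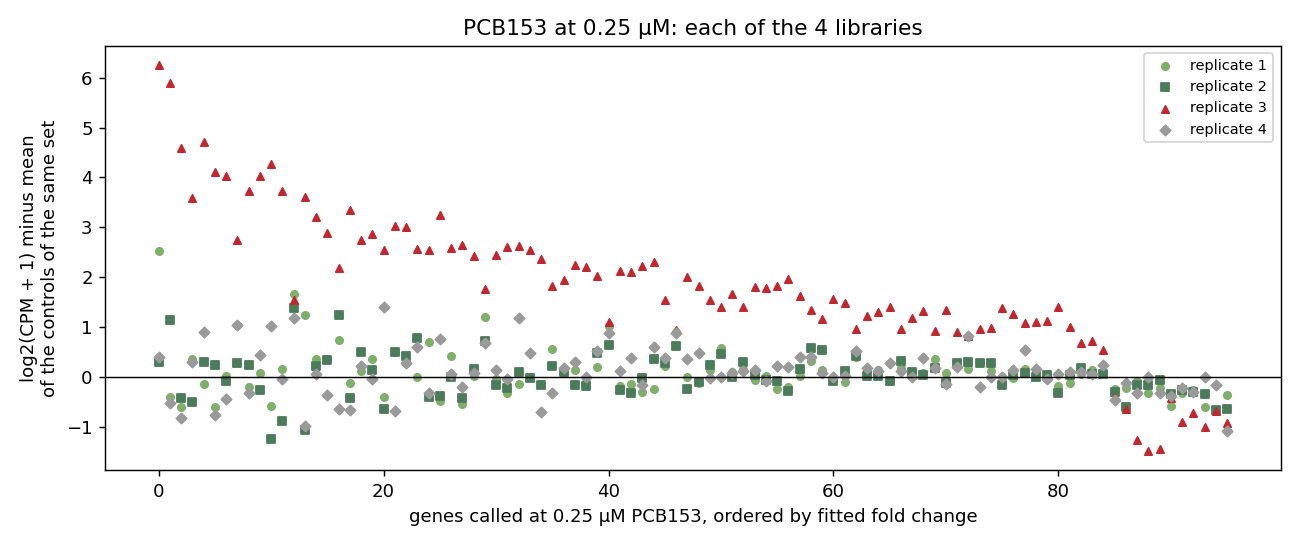
Each of the 96 genes called at 0.25 µM PCB153 (horizontal axis, ordered by fitted fold change), shown as log2(CPM + 1) minus the mean of the controls of the same set (vertical axis) for each of the 4 libraries. Replicate 3 (triangles) stands apart and the other replicates lie near 0. For 89 of 96 genes replicate 3 lies outside the range of the controls and the other replicates.

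The edgeR test called 0 to 4 genes at each of the remaining doses. PCB153 had 2 calls at 0.025 µM (0.00939%), GNAS and GMFB, both higher. It had 0 calls at 2.5 µM, where 517 genes were higher and 527 lower at an unadjusted p under 0.05 and DESeq2 also called 0. PCB187 had 4 at 0.025 µM (0.0188%), 2 at 0.25 µM (0.00939%) and 2 at 2.5 µM (0.00939%), where DESeq2 called 59, 47 and 4. With that library of PCB153 0.25 µM, replicate 3, left out, edgeR called 3 at 2.5 µM PCB153 (0.0132%), 4 at 0.25 µM PCB187 (0.0176%) and 8 at 2.5 µM PCB187 (0.0352%), LSS among the last (adjusted p = 0.0426). GMFB, glia maturation factor beta, had a log2 fold change of 0.58 (SE 0.11, adjusted p = 0.0174). TNFAIP2 and PTX3, which cytokines induce, were called at 0.025 µM PCB187, and in each 1 library, replicate 2, was high. TNFAIP2 had 98.0, 239.8, 99.1 and 109.5 CPM and PTX3 had 13.3, 74.8, 20.7 and 11.3. CADM3-AS1 was the other gene called higher there, and TMUB1, a ubiquitin-like membrane protein, was called lower at 0.25 µM PCB187 (-0.82, adjusted p = 0.0147).

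HMGA1, a chromatin architectural protein, was called lower at 3 PCB187 doses and not at the highest, and at 0.25 µM PCB153 (adjusted p = 0.00103, and 0.29 without replicate 3). Its log2 fold change was -0.38, -0.47 and -0.36 from 0.025 to 2.5 µM (adjusted p = 0.00766, 3.54e-05 and 0.0121), and -0.05 at 25 µM (adjusted p = 0.91). With PCB153 it was -0.24, -0.35, -0.18 and -0.04. HMGA1 ran from 892 to 1181 CPM in the controls, and the 12 PCB187 libraries below 25 µM lay from 729 to 897 CPM, of which only replicate 3 at 0.025 µM reached into the range of the controls.

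GNAS, the stimulatory G protein subunit, had log2 fold changes from 0.35 to 0.51 over the doses of both compounds. It was called at 0.025 and 0.25 µM PCB153 and at 2.5 and 25 µM PCB187 (0.51 at 25 µM, SE 0.09, adjusted p = 0.00044). Leaving out replicate 3 of PCB153 0.25 µM ended the call of GNAS at that dose (adjusted p = 0.20) and added calls at 2.5 µM PCB153 (adjusted p = 0.0312) and 0.25 µM PCB187 (adjusted p = 0.0443). It had a median of 326 CPM in the controls and 465 in the PCB libraries. The 48 libraries of the 3 other chemicals on the plate had a median of 471 CPM. The higher median was thus shared by the dosed wells of all chemicals on the plate, and the ranges of controls (209.8 to 468 CPM) and PCB libraries (367 to 556) overlapped. GNAS overlaps antisense and other transcripts, and the strand setting of the counting is not given in the sources used here.

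**Figure D4:**
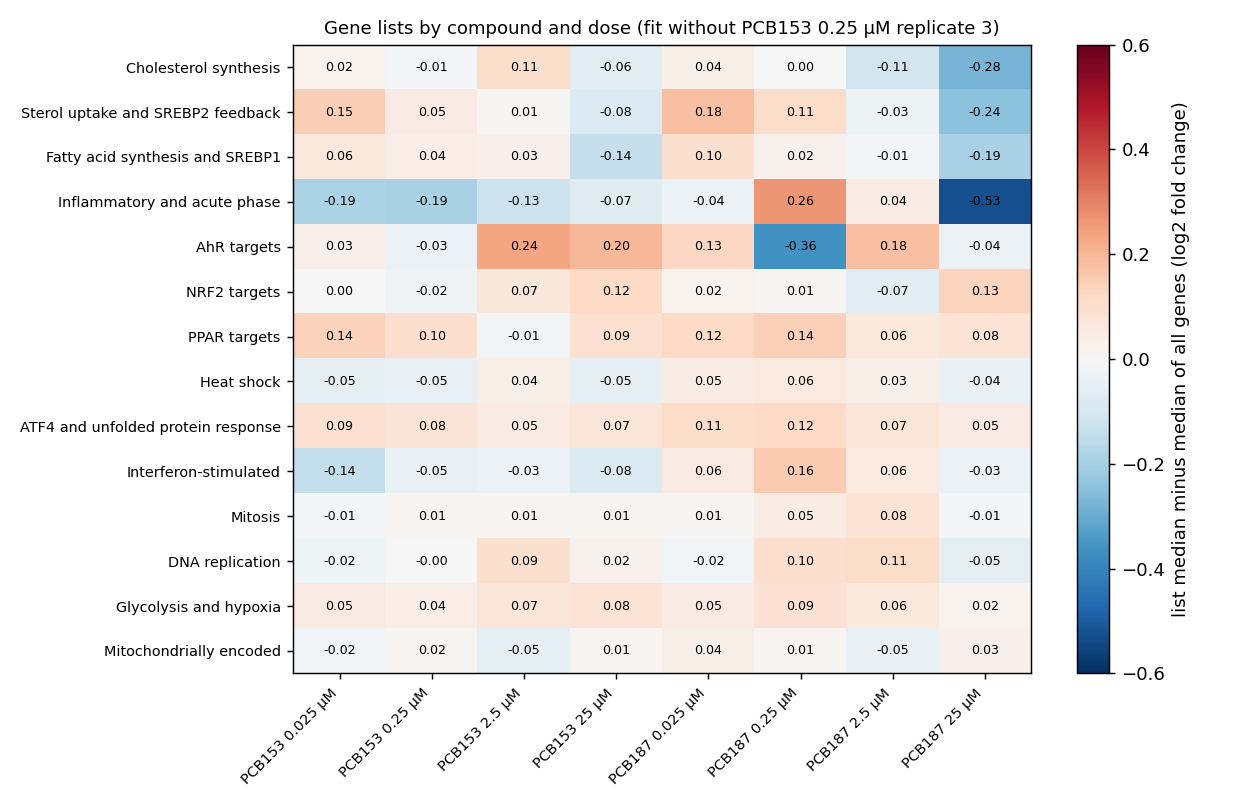
Median log2 fold change of 14 gene lists minus the median of all genes, by compound and dose in µM against DMSO controls, in the fit without replicate 3 of PCB153 0.25 µM (red above 0, blue below). The lowest cells at 25 µM PCB187 are inflammatory and acute phase genes at -0.53 and cholesterol synthesis at -0.28, where PCB153 has -0.07 and -0.06.

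PCB187 was compared with PCB153 directly at each of the 4 matched doses, with p-values adjusted over all genes of the 4 pairs together. At 0.025 and 2.5 µM no gene was called (0 of 21307 by the edgeR test, with 393 higher and 416 lower, and 404 and 450, at an unadjusted p under 0.05). At 0.25 µM 14 genes (0.0657%) were called lower with PCB187, AKR1C1 first at -3.28 (SE 0.46, adjusted p = 2.8e-07). Without replicate 3 of PCB153 none was, and AKR1C1 then differed by 0.09 (95% interval -0.31 to 0.49). At 25 µM 1 gene (0.00469%) was called.

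That gene was CYP1A1, lower with PCB187 by a log2 difference of -1.60 (SE 0.36, 95% interval -2.30 to -0.89, adjusted p = 0.0378), or 3.02-fold. The difference was -2.93 in the first set and -0.81 in the second. All 4 PCB153 libraries were above all 4 PCB187 libraries. Without replicate 3 of the 0.25 µM group the difference stayed at -1.60 with an adjusted p of 0.0875, above the threshold. It was called in 5 of 14 alternatives (adjusted p from 0.00102 to 1).

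Cholesterol synthesis genes were lower with PCB187 than with PCB153 at 25 µM without any being called. Of the 20, 19 had a difference below 0 and 13 an unadjusted p under 0.05, against 2.17% of all genes, and the median difference was -0.28 against 0.00. IDI1 differed by -0.41 (95% interval -0.63 to -0.20, adjusted p = 0.37), HMGCS1, the synthase at the start of the chain, by -0.49 (-0.78 to -0.21, adjusted p = 0.72) and DHCR7 by -0.33 (-0.53 to -0.12). INSIG1 differed by -0.58 (-0.92 to -0.25, adjusted p = 0.66). LSS and MVD, which also lay below 0 with PCB153, differed by -0.32 (-0.60 to -0.03) and -0.20 (-0.50 to 0.10). For IDI1 the 4 PCB187 libraries (139.6 to 144 CPM) lay below the 4 PCB153 libraries (184 to 196).

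For 6 genes described above for both compounds the intervals of the difference included 0. TIMP1 differed by 0.09 (95% interval -0.21 to 0.38), TSC22D1 by 0.08 (-0.16 to 0.32), KRT17 by -0.22 (-0.79 to 0.34), KRT6A by -0.13 (-0.40 to 0.13), SCD by 0.01 (-0.25 to 0.27) and FASN by 0.16 (-0.13 to 0.45). These intervals leave room for differences of the size given by their bounds. SAA1 differed by -0.58 (-1.08 to -0.07, adjusted p = 0.99) and RELB by -0.75 (-1.16 to -0.33, adjusted p = 0.66).

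**Figure D5:**
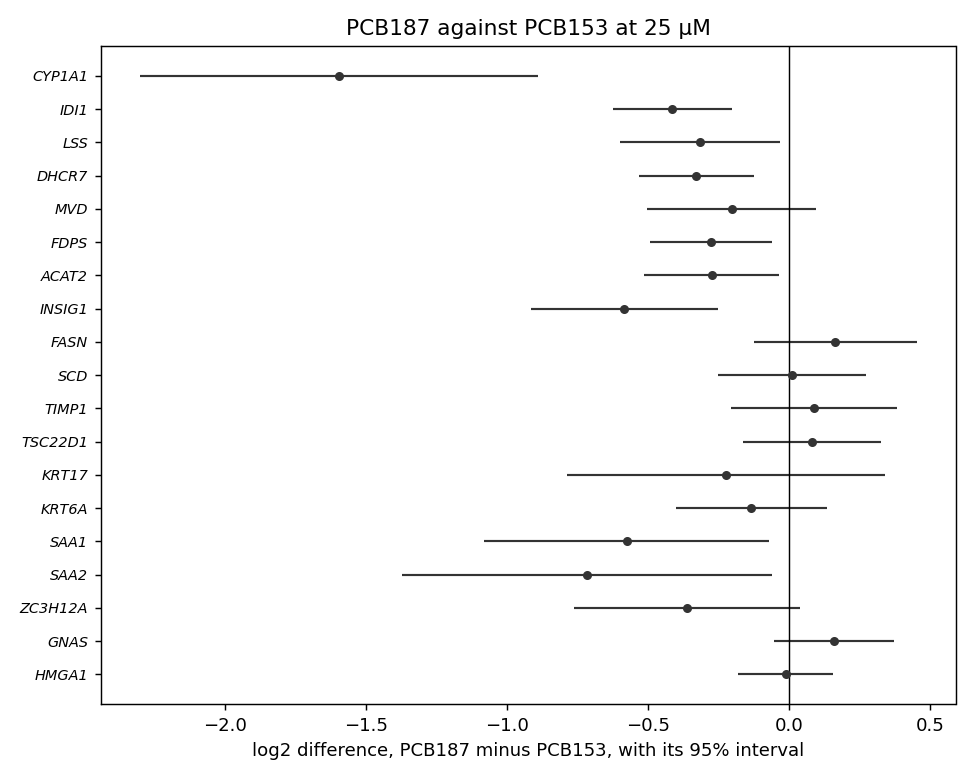
Log2 difference between PCB187 and PCB153 at 25 µM (horizontal axis, with 95% interval) for genes named in the text. CYP1A1 at -1.60 is the only one called. The points of the sterol genes lie below 0, though the interval of MVD includes 0. The intervals of TIMP1, TSC22D1, KRT17, KRT6A, SCD and FASN include 0 too.

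Of 18 listed genes of the CAR and PXR pathways 7 passed the filter on low counts. CYP2B6 and CYP3A4, usual indicators in liver, had 0 counts in all 47 PCB and control libraries. At 25 µM none of the 7 was called with either compound. None of the 11 ryanodine receptor and calcium store genes and none of the 6 tested estrogen receptor and target genes was called at 25 µM either, with medians of -0.11 and 0.01 for PCB153 and of -0.03 and 0.01 for PCB187.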

How the data were processed

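RNA was sequenced from wells of MCF10A cells with plexWell libraries, per the labels' protocols. The authors deposited raw read counts per gene symbol for each library, and per the submitters' processing notes FastQC, MultiQC, STAR, featureCounts and GRCh38 were used. For their versions, settings and strand: not given in the sources used here. The 95 libraries of the plate entered 1 fit with edgeR 4.0.16 in R 4.3.3 (TMM scaling, filterByExpr with minimum counts of 10 and 15, quasi-likelihood test), with a mean for each chemical and dose and a term for the set. Levels are CPM of the scaled library size. P-values were adjusted by Benjamini-Hochberg over the 21307 genes tested, and for the direct comparisons over the genes of all 4 dose pairs. A gene is called at an adjusted p under 0.05. The dose trend weights the doses evenly on a log scale.

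The members, gene lists and tests were chosen with earlier results of these data known. Named genes are members of the lists, all called genes of a comparison with at most 30 calls, up to 12 per direction with a mean log2 CPM of 3 or more where there were more, and the 3 smallest p-values where there was none. In the direct comparisons the deviations of same-numbered libraries correlated above 0.1 in every pair only at 2.5 µM (lowest 0.110) and 25 µM (lowest 0.148). The lowest such correlation was 0.0629 at 0.025 µM and 0.0443 at 0.25 µM. At 25 µM the mean was 0.215 for same-numbered libraries and 0.204 for other numbers of the same set, so a pairing by number is not shown there. At 2.5 µM these means were 0.191 and 0.118. No pair of libraries held identical values. Alternatives were RLE scaling, no filter, no term for the set, each set alone, 47 libraries only, a replicate block, another dispersion setting, DESeq2 1.42.0 and left-out replicates. Precision rests on the number of reads per library and of wells per group. Some single genes are not reported here.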

Additional observations from a re-analysis of the deposited data

Results flagged for a closer look

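Of 263 sets of values, each a named gene in a group of 4 libraries, 21 had 1 library far from the others, with a gap above Dixon's critical share of the range of the group. Chance gives about 1 in 20, but genes were named for being called at 0.25 µM PCB153 with replicate 3 in the fit, so the 13 of the 21 that are this library restate that choice in part and are no comparison with chance. In that library AKR1C1 had 1588 CPM, ASPH 947, CYP4F11 186, FTL 8403, NMRAL2P 85.9 and NQO1 2567.5 CPM. SCG5 had 44.9 CPM, SDCBP2 225, SFN 1494, SLC7A11 182, SQSTM1 2383, TIMP1 8661 and TXNRD1 1119.9 CPM.

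The others were spread over groups. With PCB153, TIMP1 had 2338 CPM in replicate 3 at 0.025 µM and SLC20A1 999 CPM in replicate 3 at 25 µM. With PCB187 at 0.025 µM, TNFAIP2 had 239.8 CPM in replicate 2 and ANXA3 264 CPM in replicate 4. At 0.25 µM, SERPINB2 had 1.48 CPM in replicate 1 and NMRAL2P 2.04 CPM in replicate 2. At 25 µM, SCD had 160.4 CPM in replicate 1 and RELB 13.5 CPM in replicate 4.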

How the results depend on the processing

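Counts of called genes moved with many settings, and the cause was not tested. They are given in the order PCB153 at 0.025, 0.25, 2.5 and 25 µM and its trend, PCB187 likewise, then the direct comparisons at the 4 doses. With all libraries they were 2, 96, 0, 1 and 1, then 4, 2, 2, 27 and 8, then 0, 14, 0 and 1. With no filter they were 4, 156, 25, 26 and 15, then 26, 32, 34, 76 and 35, then 2, 56, 4 and 8. In the first set alone they were 48, 6, 11, 12 and 43, then 63, 35, 39, 21 and 12, then 3, 0, 3 and 1. In the second set alone they were 5, 256, 3, 2 and 2, then 2, 14, 4, 29 and 37, then 0, 83, 2 and 19. With DESeq2 they were 4, 87, 0, 2 and 0, then 59, 47, 4, 36 and 21, then 0, 5, 0 and 0. With the 47 libraries they were 1, 78, 0, 1 and 2, then 3, 3, 2, 12 and 4, then 0, 4, 0 and 0. Without a term for the set they were 2, 71, 0, 1 and 1, then 2, 2, 1, 5 and 2, then 0, 7, 0 and 0. With another dispersion setting, chosen after seeing the data, they were 1, 85, 0, 0 and 0, then 7, 1, 1, 5 and 6, then 0, 6, 0 and 0. RLE scaling gave 2 at 25 µM PCB153. Without replicate 3 of PCB153 0.25 µM they were 2, 0, 3, 9 and 5, then 4, 4, 8, 55 and 17, then 0, 0, 0 and 0, and without its replicate 1, 2 or 4 that dose had 147, 148 or 157. Without replicate 4 of PCB187 0.025 µM, chosen after seeing the data, the PCB187 trend had 3. With a replicate block the direct comparisons had 0, 11, 0 and 1, and the trends 1 and 8; the block moved no count by over 1.5 times.

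Leaving out each replicate number in turn gave ranges of 0 to 2, 0 to 156, 0 to 1 and 0 to 5 for PCB153 and 0 to 4 for its trend. For PCB187 they were 0 to 4, 1 to 7, 1 to 5 and 6 to 33, and 2 to 14 for the trend. For the direct comparisons they were 0 to 1, 0 to 29, 0 to 1 and 0 to 1.

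Among called genes, directions reversed only at 0.25 µM, for genes in which replicate 3 of PCB153 was high. Among values that were not called, the PCB187 trend of CYP1A1 was -0.41 in the first set alone, and the direct differences at 25 µM were 0.13 for KRT6A and -0.085 for TSC22D1 there and -0.086 for TIMP1 in the second set. Against control, in the first set alone, without every replicate 3 and without that library, AKR1C1 had -0.50, -0.59 and -0.60, FTL -0.094, -0.0075 and -0.013, CYP4F11 -0.14, -0.36 and -0.36, AKR1C2 -0.26, -0.37 and -0.38, and TIMP1 -0.21, -0.085 and -0.090. SDCBP2 had -0.11 in the first set. The direct difference, without every replicate 3 and without that library, was 0.026 and 0.089 for AKR1C1, 0.0088 and 0.025 for FTL, 0.00092 and 0.018 for SQSTM1, and 0.12 and 0.37 for CYP4F11. It was 0.16 and 0.14 for EPGN (0.14 in the first set), 0.12 and 0.17 for NMRAL2P, and 0.25 and 0.25 for SDCBP2 (0.39 in the first set). Over all left-out replicates the highest fold change against control was 3.15 for AKR1C1, 1.22 for FTL, 2.78 for CYP4F11, 1.93 for AKR1C2 and 0.97 for TIMP1. The lowest direct difference was -3.75 for AKR1C1, -1.20 for FTL, -1.14 for SQSTM1, -2.87 for CYP4F11, -1.56 for EPGN, -3.08 for NMRAL2P and -2.31 for SDCBP2. The controls of the second set had the lowest median depth, and how far that limits the calls was not tested.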

Other observations

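Other genes had a dose trend with PCB187. S100A4, a calcium-binding protein, rose by 0.28 (log2) per 10-fold step (adjusted p = 0.0222, edgeR). BIRC3, an inhibitor of apoptosis, fell by 0.28, LIMCH1 by 0.25 and TNFAIP2 by 0.22 (adjusted p = 0.033 for each), and ANXA3 fell by 0.17 (adjusted p = 0.0396). All 5 were also called without replicate 3 of PCB153 0.25 µM. Without replicate 4 of PCB187 0.025 µM (2.72 M reads), 3 genes had a trend, all lower, so S100A4 was not among them. IDI1 and LSS were called in all 15 alternatives of this trend, that one included. Of the 15, S100A4 was called in 10, BIRC3 in 9, ANXA3 in 7 and LIMCH1 in 6. TNFAIP2 was high in replicate 2 at 0.025 µM, and ANXA3 had its flagged value in replicate 4 there, as given above.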
